A study of Saccharomyces cerevisiae with 16 samples.

Results

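The 38 genes described here had no value in the high phosphate library of a phosphate starvation time course of Saccharomyces cerevisiae, but had a value in at least 6 of 13 later libraries. They were taken from the 4932 rows of the table that carry a gene name, of 6701 rows in all. Of these named rows, 347 had no value at 0 min: 226 were listed in none of the 13 libraries, 81 in 1 to 5 and 40 in 6 or more, and of the last, GIT1 and HXT5 were set aside. The genes were thus chosen by whether a value was listed at 0 min and by how many later values there were, so the absence at 0 min and the number of later values are descriptions and were not tested.

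The cells are a derivative of the laboratory strain BY4741, labelled pho84pr-YFP, delta-phm4: they carry a YFP reporter behind the PHO84 promoter and are labelled as lacking PHM4, also called VTC1, a subunit of the vacuolar polyphosphate polymerase. The same genotype was used for all libraries. One library came from high phosphate medium (0 min), and 15 came from cells washed into medium without phosphate, sampled every 15 min from 15 to 225 min, 1 library a time. VTC1 itself was listed in all 16 libraries, at a log2 level between 6.67 and 7.51 in the 14 deeper ones, so the genotype is given here as labelled. No strain with intact PHM4 was analysed here and no time point had a replicate.

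When phosphate runs out, the kinase Pho80-Pho85 is inhibited, the transcription factor Pho4 enters the nucleus, and genes of phosphate uptake, scavenging and storage are switched on through the Pho4 site CACGTG. Starved yeast also slows growth and turns on a general stress programme through Msn2 and Msn4, which bind the stress response element AGGGG, and, if starvation lasts, genes of the resting state. Many of those genes are close to silent in cells growing on glucose and rich in phosphate.

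Values are reads per 1000000 (CPM), or their log2. They are not divided by gene length, and levels are therefore not compared between genes. In each library the lowest listed value was 10 times the smallest step between low values, so a gene appears to need 10 reads to be listed. On that reading the 0 min library held 3437873 reads and had a floor of 2.91 CPM, and the other 13 libraries used held 603426 reads (30 min) to 2280486 reads (90 min), with floors of 16.6 to 4.39 CPM. A gene without a value at 0 min was thus below 2.91 CPM there. The libraries of 195 and 210 min held 40984 and 45009 reads, with floors of 244 and 222 CPM. The highest value of any of the 38 genes in the other libraries was 106 CPM, and none of them was listed at 195 or 210 min. Each value near a floor rests on about 10 reads, so its counting error is large: the 19.9 CPM of MOH1 at 30 min came from 12 reads and has a 95% Poisson interval of 10.3 to 34.7 CPM. Intervals cover counting error alone. Fewer cells that express a gene and less RNA in each cell cannot be told apart in these bulk libraries.

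The stretches upstream of 6 of the genes, from RefSeq build R64, show the letters that the description refers to. MOH1, RTC2 and PHR1 are shown because they passed a test within starvation, XBP1 because it carried the most stress elements, PHM7 for its place in the phosphate regulon and RIM4 as a regulator of meiosis. Capitals mark AGGGG or its complement CCCCT in all but RIM4, where they mark GGCGGC or GCCGCC, the core of the site bound by Ume6, a repressor of meiotic genes. In RTC2 they also mark TGACTC or GAGTCA, the site of the amino acid starvation factor Gcn4.
MOH1, chrII:126528-126827, + strand, 300 to 1 bases before the start codon: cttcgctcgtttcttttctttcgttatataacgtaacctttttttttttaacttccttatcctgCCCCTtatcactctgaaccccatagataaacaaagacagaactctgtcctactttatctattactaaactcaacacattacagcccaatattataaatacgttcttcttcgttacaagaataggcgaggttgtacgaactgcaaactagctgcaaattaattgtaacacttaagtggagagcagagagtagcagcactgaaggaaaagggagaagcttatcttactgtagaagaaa
RTC2, chrII:536275-536574, + strand, 300 to 1 bases before the start codon: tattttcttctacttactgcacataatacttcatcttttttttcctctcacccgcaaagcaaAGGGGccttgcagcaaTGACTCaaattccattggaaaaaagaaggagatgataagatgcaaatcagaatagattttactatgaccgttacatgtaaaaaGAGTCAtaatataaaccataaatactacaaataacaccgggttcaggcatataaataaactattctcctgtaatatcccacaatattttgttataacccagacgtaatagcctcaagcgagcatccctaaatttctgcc
PHR1, chrXV:1066539-1066838, + strand, 300 to 1 bases before the start codon: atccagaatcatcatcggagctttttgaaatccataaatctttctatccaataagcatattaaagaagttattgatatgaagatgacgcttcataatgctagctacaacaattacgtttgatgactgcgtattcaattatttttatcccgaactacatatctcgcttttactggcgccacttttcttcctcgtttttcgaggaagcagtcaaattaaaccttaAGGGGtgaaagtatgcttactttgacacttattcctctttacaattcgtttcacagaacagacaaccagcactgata
XBP1, chrIX:177561-177730, - strand, 170 bases that begin 480 bases before the start codon: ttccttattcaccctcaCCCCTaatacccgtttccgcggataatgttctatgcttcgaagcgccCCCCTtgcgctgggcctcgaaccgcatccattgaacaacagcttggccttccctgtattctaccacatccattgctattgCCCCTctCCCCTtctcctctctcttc
PHM7, chrXV:162056-162355, + strand, 300 to 1 bases before the start codon: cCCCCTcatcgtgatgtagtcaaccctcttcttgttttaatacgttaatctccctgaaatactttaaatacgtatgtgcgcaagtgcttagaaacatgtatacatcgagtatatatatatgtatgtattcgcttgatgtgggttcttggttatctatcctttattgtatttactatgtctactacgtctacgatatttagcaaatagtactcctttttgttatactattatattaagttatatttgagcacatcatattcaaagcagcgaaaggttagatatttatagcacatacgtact
RIM4, chrVIII:56299-56398, + strand, 100 bases that begin 350 bases before the start codon: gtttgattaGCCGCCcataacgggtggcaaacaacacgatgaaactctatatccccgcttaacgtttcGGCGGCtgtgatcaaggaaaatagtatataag

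No CACGTG stood in the 500 bases before the start codon of any of the 38 genes, while 6.23% of the 6000 such windows in the genome hold it. GIT1, a gene of the phosphate regulon, had been set aside before this count, and no other form of the Pho4 site was searched. AGGGG, on either strand, stood in 20 of the 38 windows (52.6%) and in 34.1% of all windows, and at least 2 copies stood in 13.2% of the 38 against 8.13% of all. XBP1 had 4 copies and GSM1 had 3. GGCGGC stood before 5 genes (13.2%, against 9.57% of all): RTC2, UGA4, RNP1 and SNO1 had 1 copy each and RIM4 had 2. TTCNNGAA, part of the heat shock element, stood before 6 (15.8%, against 21.2%) and TGACTC before 4 (10.5%, against 12.7%), namely RTC2, SFC1, SNO1 and PHM7. These are matches of letters and carry no test. The window before RRT1 covers the MOH1 gene, and its AGGGG lies inside MOH1.

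Most of the genes were first listed by 45 min, were low or unlisted around 105 min, and had their highest value late. In time order, 14 were first listed at 15 min, 2 at 30 min (TKL2 and SFC1), 20 at 45 min, PGU1 at 60 min and AIM33 at 75 min. The first time has to be read beside the floors, which were 7.39, 16.6 and 5.34 CPM at 15, 30 and 45 min. Of the 24 genes first seen after 15 min, 18 had a first value above the floor of at least 1 earlier library, and for the other 6 it lay below all earlier floors. Counting error in the first value leaves 9 of the 18, and counting error in the earlier libraries was not taken into account. In the other 9, such as YPT53 at 7.47 CPM (4.08 to 12.5) at 45 min, the 95% interval reached below every earlier floor. NDE2 is among the former 9, at 21.9 CPM at 45 min and under 7.39 and 16.6 CPM before. LEE1 and AQY1, at 5.34 CPM when first seen, are among the 6.

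**Figure D1:**
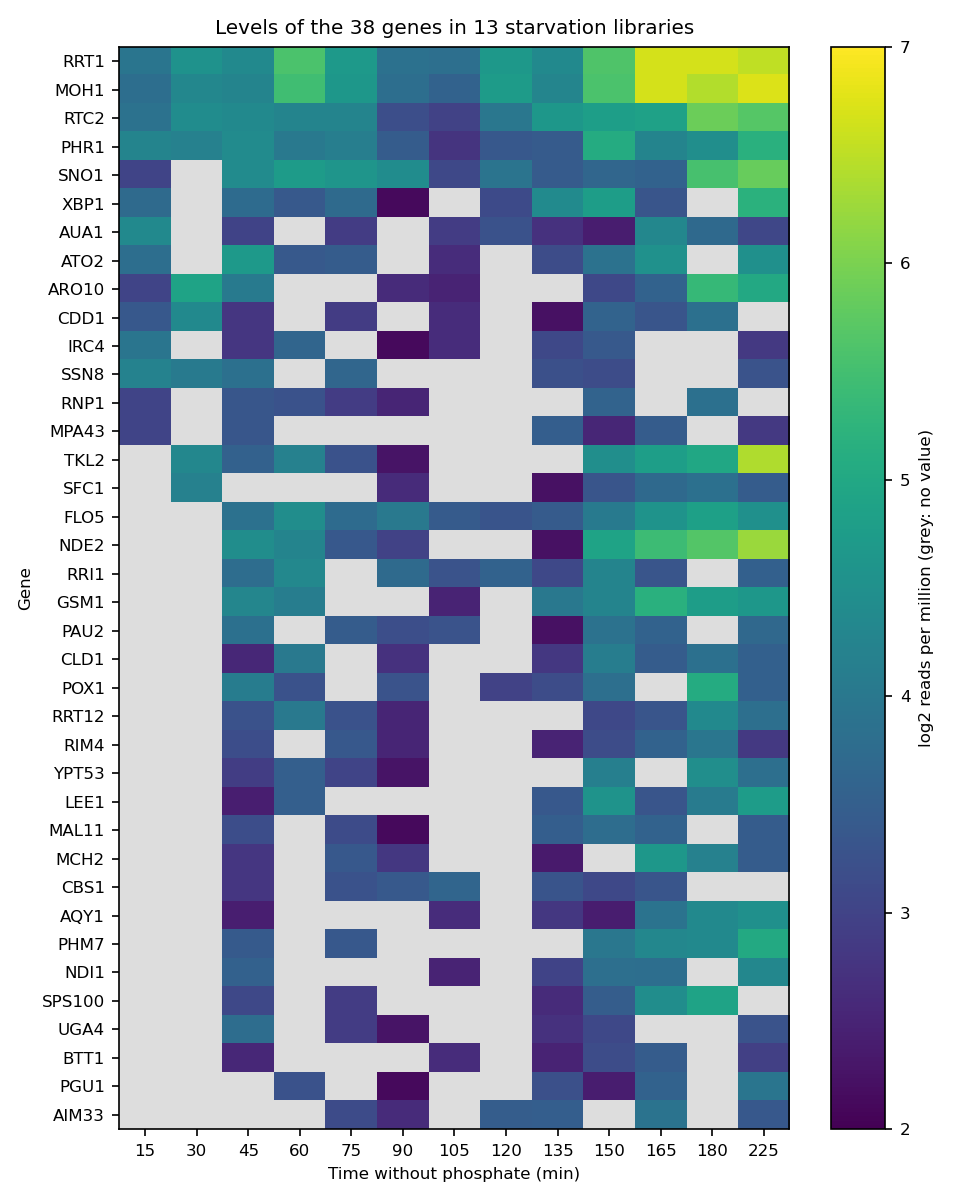
Log2 CPM (colour) of the 38 genes (rows, ordered by first time listed and number of values) in the 13 starvation libraries used (columns, time in min); grey marks no value. Grey cells are frequent at 30 and 120 min, and the brightest cells are those of MOH1 and RRT1 from 165 min on.

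To set floors aside, levels were counted at or above 16.6 CPM, the highest floor of the 13 libraries. The genes at that level numbered 3 at 15 min, 9 at each of 30, 45 and 60 min, 5 at 75 min, 1 at 90 min and none at 105 min. SNO1 was the gene still there at 90 min. The count then went from 2 at 120 min and 4 at 135 min to 12, 13 and 18 at 150, 165 and 180 min, and to 16 at 225 min. Over all genes in the table, most of which lie far above that level, the same count was also lowest of the 13 libraries at 105 min, at 4678. It was highest at 225 min, at 4866, and at 0 min it was only 4432. The median of genes listed in all 14 deeper libraries was likewise lowest at 0 min, at -0.3 (log2) from the mean of these medians. Its bearing on the absence of the 38 genes at 0 min was not tested. In all, 27 of the 38 genes ever reached 16.6 CPM, and 15 of them had done so by 45 min. At 105 min 18 genes were listed, with a floor of 5.66 CPM, against 35 at 45 min with a floor of 5.34 CPM and 36 at 150 min with a floor of 5.27 CPM. The summed level of the 38 genes was 445 CPM at 45 min, 147 CPM at 105 min, 591 CPM at 150 min and 938 CPM at 225 min. The peak fell at 150 min or later in 28 genes, at 15 to 75 min in 8 and in between in 2, CBS1 (105 min) and MPA43 (135 min). In 14 genes a value at 45 min was followed by none at 105 or 120 min and by a value again at 150 min. The shares of all genes with such peaks or gaps were not counted. Gaps also depend on the floor, which was 7.94 CPM at 120 min against 5.27 CPM at 150 min.

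**Figure D2:**
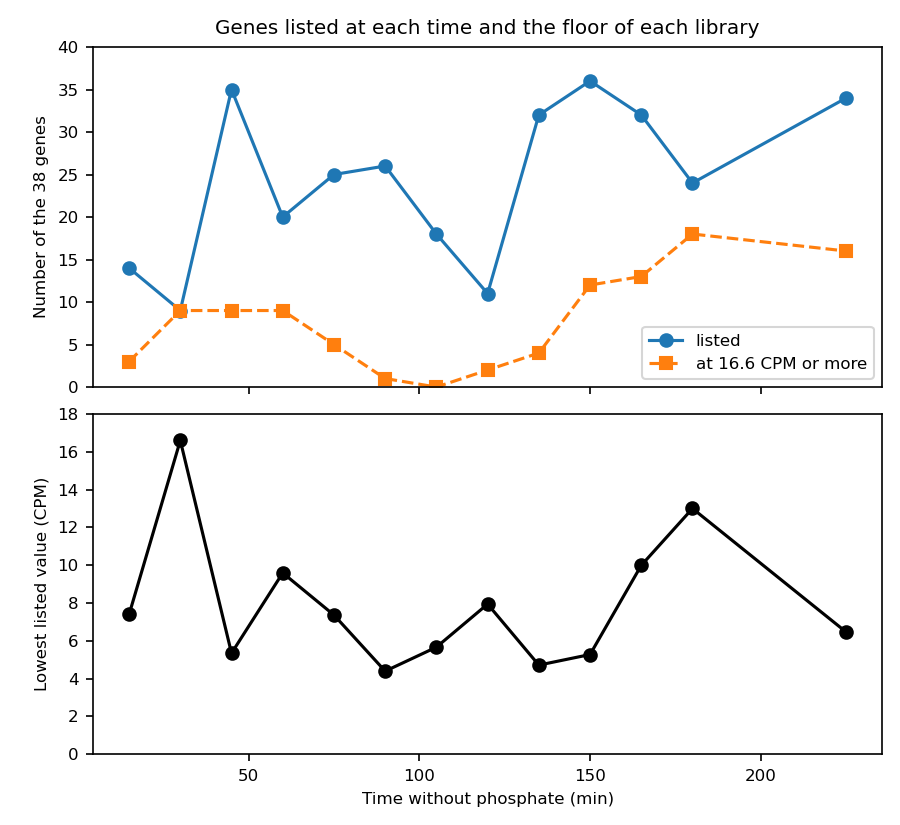
Upper panel: number of the 38 genes listed (circles) and at 16.6 CPM or more (squares) against time without phosphate in min. Lower panel: the lowest listed value of each library in CPM; at 105 min 18 genes were listed and none reached 16.6 CPM, although the floor was only 5.66 CPM.

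The genes that rose between windows of the time course are described first, with those of the resting state and stress. MOH1 (YBL049W, chromosome II, 126828 to 127244), needed for survival in stationary phase, was at 14, 19.9, 19.2, 44.1 and 25 CPM from 15 to 75 min. It was at 14, 11.9 and 27.0 CPM from 90 to 120 min, then at 19.3 CPM at 135 min and at 48.0, 102, 86.1 and 106 CPM at 150, 165, 180 and 225 min. The last 4 values all lie above the earlier 9, and the peak was 36.4 times the 0 min floor. The 95% intervals at 60 min (32.3 to 58.8 CPM) and 150 min (38.6 to 58.9 CPM) overlap, however. RRT1 (YBL048W, chromosome II, 127299 to 127610), a small open reading frame of unknown function, followed MOH1 in all 13 libraries with gaps of at most 0.25 on the log2 scale. It begins 54 bases after MOH1 on the same strand. The 2 rows may therefore count reads of the same transcript. In the tests, counts of genes that rose are also given with the pair as a single signal. Counts of listed genes, levels and peaks and the summed levels hold both rows. At 225 min MOH1 and RRT1 made up 106 and 92.3 CPM of the summed 938 CPM.

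RTC2 (YBR147W), which exports cationic amino acids from the vacuole, lay between 14.8 and 21.5 CPM from 15 to 75 min. It was at 9.21, 7.92 and 15.9 CPM at 90, 105 and 120 min and then climbed through 24.9, 27.9 and 29.0 CPM to 58.7 CPM at 180 min and 51.7 CPM at 225 min. PHR1 (YOR386W), the DNA photolyase that repairs ultraviolet damage, lay between 16.3 and 21.3 CPM from 15 to 75 min, at 11.0, 6.79, 10.3 and 10.8 CPM from 90 to 135 min, and at 33.7, 19.0, 22.2 and 36.2 CPM at 150, 165, 180 and 225 min. All 4 late values of RTC2 lie above its early ones, but the 95% intervals at 30 min (11.5 to 36.8 CPM) and 150 min (20.9 to 36.5 CPM) overlap. In PHR1 the late and early values overlap. SNO1 (YMR095C), which forms a stationary-phase gene pair of vitamin B6 metabolism with SNZ1, held between 21.3 and 26.8 CPM from 45 to 90 min, lay between 8.48 and 15.1 CPM from 105 to 165 min, and reached 47.0 and 57.5 CPM at 180 and 225 min. Its lowest values in that stretch were those of 105 and 135 min.

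XBP1 (YIL101C), a repressor of cyclin genes in stressed and resting cells, was at 13.3, 13.3, 10.5 and 13.2 CPM at 15, 45, 60 and 75 min, at 4.39 CPM at 90 min and under 5.66 CPM at 105 min. It was back at 21.2 CPM at 135 min and 27.4 CPM at 150 min, but at 9.99 CPM at 165 min, and at 36.8 CPM at 225 min. YPT53 (YNL093W), a stress-induced GTPase of the endosome, was at 7.47 to 11.5 CPM from 45 to 75 min, was not listed from 105 to 135 min, and reached 22.2 CPM at 180 min. GSM1 (YJL103C), a putative zinc cluster factor of energy metabolism, was at 19.7 and 17.3 CPM at 45 and 60 min, at 5.66 CPM at 105 min, and at 36.0 CPM at 165 min. LEE1, a zinc finger protein of unknown function, went from 5.34 CPM at 45 min to 27.1 CPM at 225 min. It was missing at every time from 75 to 120 min.

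**Figure D3:**
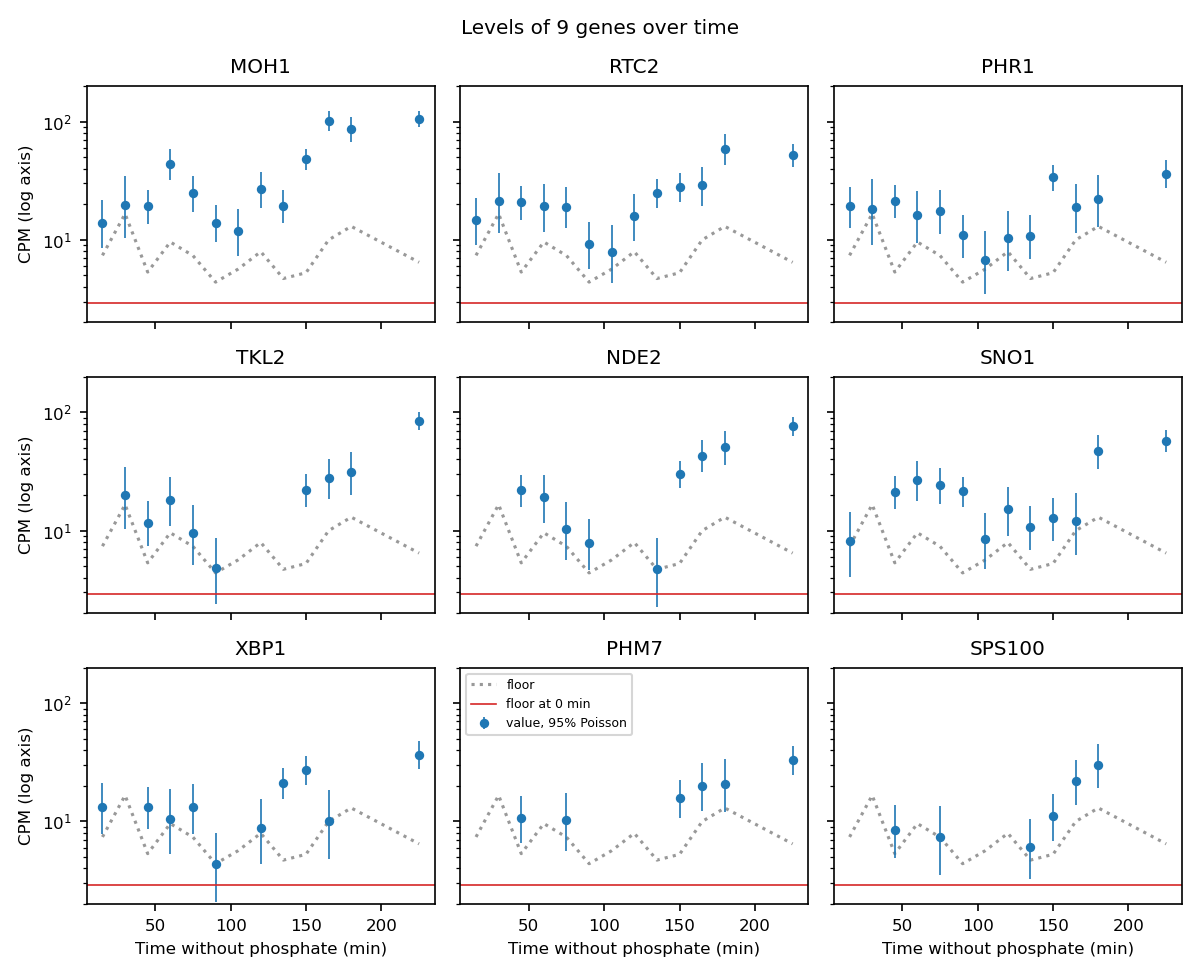
CPM (log axis) of MOH1, RTC2, PHR1, TKL2, NDE2, SNO1, XBP1, PHM7 and SPS100 against time without phosphate in min, with 95% Poisson intervals; dotted lines are the floor of each library and the red line the 0 min floor of 2.91 CPM. MOH1, TKL2 and NDE2 end at 106, 84.6 and 76.2 CPM after a low stretch around 105 min.

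Genes of carbon use and respiration made up the next group. TKL2 (YBR117C), the minor transketolase of the pentose phosphate pathway, was at 19.9, 11.7, 18.2, 9.57 and 4.82 CPM from 30 to 90 min, was not listed at 105, 120 or 135 min, and was at 22.1, 28.0, 31.3 and 84.6 CPM at 150, 165, 180 and 225 min. The last value, from 131 reads, was 29.1 times the 0 min floor. NDE2 (YDL085W), which feeds cytosolic NADH to the respiratory chain, was at 21.9, 19.2, 10.3 and 7.89 CPM from 45 to 90 min, under 5.66 CPM at 105 min, and at 4.71 CPM at 135 min. It was at 30.0, 43.0, 50.9 and 76.2 CPM at 150, 165, 180 and 225 min. NDI1, the NADH dehydrogenase on the inner side of the mitochondrial membrane, was seen in 6 libraries, at 5.66 CPM (105 min) to 20.0 CPM (225 min). SFC1, the mitochondrial succinate-fumarate carrier, was highest when first seen, at 18.2 CPM at 30 min, and lay between 4.71 and 14.4 CPM later. POX1, the acyl-CoA oxidase of peroxisomal fatty acid breakdown, was at 17.1 CPM at 45 min, 7.94 CPM at 120 min and 33.9 CPM at 180 min. ARO10, a decarboxylase of amino acid breakdown to fusel alcohols, had both an early maximum of 29.8 CPM at 30 min and a late one of 40.4 CPM at 180 min, with 5.66 CPM at 105 min between them.

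Several transporters are among the genes. ATO2 (YNR002C), a putative ammonia exporter, was at 25.6 CPM at 45 min, 6.22 CPM at 105 min, and 23.0 and 22.6 CPM at 165 and 225 min. MAL11, the high-affinity maltose permease, and MCH2, which resembles monocarboxylate permeases, were each listed in 7 libraries. MAL11 lay between 4.39 and 13.7 CPM. MCH2 was at 6.94, 10.3, 7.02 and 5.18 CPM at 45, 75, 90 and 135 min. It was not listed at 150 min, where the floor was 5.27 CPM, and was at 25, 18.3 and 11.0 CPM at 165, 180 and 225 min. These last values lay above the earlier ones, but the floor was 9.99 CPM at 165 min and above all earlier values at 180 min. The 95% intervals at 75 and 225 min overlapped, at 5.63 to 17.3 and 6.39 to 17.6 CPM. UGA4, the permease of the amino acid GABA, was highest at 45 min, at 13.9 CPM, and was seen in 6 libraries at a median of 7.88 CPM. Of other mitochondrial genes, CLD1, a phospholipase of cardiolipin, peaked at 17.4 CPM at 150 min. CBS1, a translation activator of the mitochondrial cytochrome b mRNA, was at 10.5 and 12.4 CPM at 90 and 105 min, its highest values, and had none at 180 or 225 min.

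PHM7 (YOL084W, chromosome XV, 162356 to 165331) is the gene of the phosphate regulon list among the 38, a membrane protein named for its regulation by phosphate. It was at 10.7 CPM at 45 min and 10.3 CPM at 75 min, was not listed from 90 to 135 min, and was at 15.8, 20.0, 20.9 and 32.9 CPM at 150, 165, 180 and 225 min. The values of the last 4 libraries are the highest of its 6, but the 95% intervals at 45 min (6.52 to 16.5 CPM) and 150 min (10.7 to 22.6 CPM) overlap. PHM7 was listed too rarely for the test of the slope.

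A group of genes named for meiosis or spores was present at low level. SPS100 (YHR139C), a spore wall protein, was at 8.54, 7.36 and 6.12 CPM at 45, 75 and 135 min, at 11.1, 22.0 and 30.0 CPM at 150, 165 and 180 min, and not listed at 225 min, where the floor was 6.46 CPM. AQY1, the water channel of spores, was at 15.0, 20.9 and 22.6 CPM at 165, 180 and 225 min. In the earlier libraries that listed it, it was at most 7.06 CPM. It was not listed at 15, 30, 60, 75, 90 or 120 min, where floors reached up to 16.6 CPM (30 min). RRT12, a protease of the spore wall, was at 16.3 CPM at 60 min and 20.9 CPM at 180 min. RIM4, an RNA-binding regulator of meiotic genes, lay between 5.65 and 15.7 CPM in 8 libraries. BY4741 is a haploid of mating type a, and its 6 markers of that type were all listed, at a summed 2146 CPM at 0 min. Of 8 markers of the other mating type in the table, 4 were listed at 0 min, at a summed 31.1 CPM. Of 12 genes taken as markers of diploid or sporulating cells, 7 were listed at 0 min. IME1, IME4, SPO13 and SMK1, which include the initiator of meiosis, were in none of the 14 deeper libraries. The 12 also include RME1, a repressor of meiosis and so not a marker of sporulating cells, and the sums below count it. Among the 4 of them tested from 90 to 120 min to 150 to 180 min, RME1 alone rose. The 12 summed to 88.4 CPM at 0 min and to 134 to 308 CPM during starvation, with means of 217, 165 and 271 CPM over 45 to 75, 90 to 120 and 150 to 180 min. Their part in the levels of SPS100, AQY1, RRT12 and RIM4 was not tested.

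Of genes of the cell surface, FLO5, a flocculin, was listed without a gap from 45 min on, at 9.79 CPM (120 min) to 28.8 CPM (180 min). It belongs to a family of near-identical genes, so its reads may be split with others. PAU2, a seripauperin, also belongs to a repeated family and lay between 4.71 and 14.8 CPM. Its recovered reads came out whole in all 8 libraries that listed it, while most of those of FLO5 did not. Splitting of reads was not tested. PGU1, a pectin-cleaving enzyme, was at 15.5 CPM at 225 min, its highest value. AUA1 (YFL010W-A), IRC4 and SSN8, the cyclin of the Mediator kinase, were highest at 15 min, at 20.7, 15.5 and 18.5 CPM, although AUA1 was again at 20.0 CPM at 165 min. AUA1, which acts in the control of amino acid uptake by ammonia, overlaps the oppositely oriented gene WWM1 by 167 bases. WWM1 was at a log2 level of 8.66 at 0 min, where AUA1 had no value. CDD1, cytidine deaminase, was at 20.7 CPM at 30 min and 14.4 CPM at 180 min. RRI1, the catalytic subunit of the COP9 signalosome, BTT1, a subunit of a complex on nascent proteins, RNP1, an RNA-binding protein, and MPA43 and AIM33 had medians of 11.9, 6.94, 9.59, 9.07 and 10.7 CPM.

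Whether levels changed within starvation was tested with limma over all genes, first as a slope on time over the 13 libraries (genes with at least 8 values) and then between windows of 3 successive libraries. A call needed an adjusted p below 0.05 and a change of at least 1 (log2). These tests use the order of the values in time, which the choice of genes did not. They use listed values only, and 17 of the 38 genes had too few values for the slope. Successive libraries of a single course stand in for replicates, so p-values measure the scatter of these libraries alone.

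MOH1 and RRT1 rose over the whole course, 2 of the 21 genes tested, or 1 of 20 with the pair as a single signal, where 3.1% of all 5282 genes were called as rising. The fitted change from 15 to 225 min was 2.79 ± 0.66 (SE, n = 13 libraries) for MOH1, or 6.92-fold (limma adjusted p = 0.0243), and 2.58 ± 0.65 for RRT1 (limma adjusted p = 0.0287). None fell, against 3.29% of all genes. NDE2 at 2.78 ± 1.11 (limma adjusted p = 0.151) and TKL2 at 2.55 ± 0.79 (limma adjusted p = 0.0739) had changes of the same size but did not pass. The median of the 21 genes was 0.82 (0.74 with the pair as a single signal) and that of all genes tested 0.09. A positive slope was seen in 17 of the 21 and in 56.1% of all genes tested. Neither MOH1 nor RRT1 passed without the library of 15, 30, 165, 180 or 225 min, where MOH1 stayed between 2.50 and 2.96.

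From 45 to 75 min to 90 to 120 min, 11 of 13 genes tested had lower values, while 42.2% of all 5242 genes had higher ones. The median difference was -0.75 (-0.65 with MOH1 and RRT1 as a single signal) against -0.08 for all genes. However, 0 of the 13 passed the call, while 3.11% of all genes fell and 5.17% rose. At an unadjusted p below 0.05 there were 2 genes, PHR1 (-1.0 ± 0.32, limma adjusted p = 0.0445, just short of the size asked for) and RTC2 (-0.91 ± 0.35, limma adjusted p = 0.0888). Many of the 38 could not enter because they were not listed from 90 to 120 min: the genes had 80 of 114 possible values in the first window, 55 in the second and 92 from 150 to 180 min. With each missing value set to the floor of its library, TKL2, NDE2 and ATO2 fell, with differences of -1.08, -1.20 and -1.26 (log2; limma adjusted p = 0.0438, 0.0261 and 0.0435), 3 of the 38 genes against 3.02% of all 5687. The floors themselves differed by -0.31 (log2) from the first to the second window, and filling turns gaps into differences. This count is therefore a description.

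The last comparison set 150 to 180 min against 90 to 120 min. RRT1, MOH1, RTC2 and PHR1 rose, 4 of 13 genes tested, or 3 of 12 with RRT1 and MOH1 as a single signal. Of all 5163 genes 7.26% rose and 8.74% fell, and none of the 13 fell. The differences were 2.18 ± 0.38 for MOH1 (limma adjusted p = 0.000533), 2.21 ± 0.36 for RRT1 (limma adjusted p = 0.000341), 1.79 ± 0.35 for RTC2 (limma adjusted p = 0.00132) and 1.40 ± 0.33 for PHR1 (limma adjusted p = 0.00426). They correspond to 4.54-, 4.62-, 3.45- and 2.64-fold. ARO10, XBP1 and POX1 had differences of 1.44 ± 0.58, 1.42 ± 0.54 and 1.33 ± 0.50 and did not pass (limma adjusted p = 0.0836, 0.0643 and 0.0662). CBS1 was the only gene of the 13 with a lower value, -0.32 ± 0.46. Of all genes tested 58.3% had a higher value. The median of the 13 was 1.33 (1.12 with the pair as a single signal) and that of all genes 0.11. Both medians use listed values only, and the floors were higher in the later window, which bears most on genes near them. These 4 calls held without any 1 library of the 2 windows, MOH1 then ranging from 1.94 to 2.54.

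**Figure D4:**
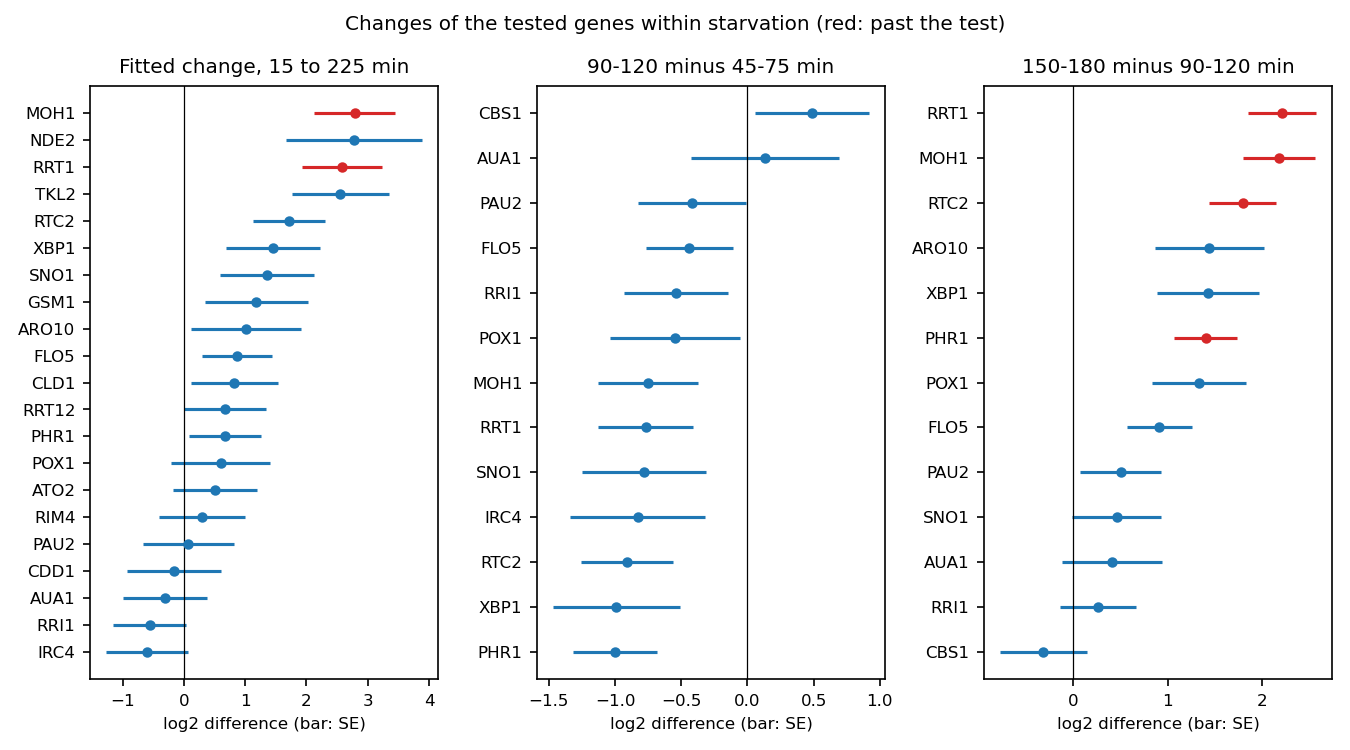
Log2 differences with standard errors for the genes with enough values: fitted change from 15 to 225 min (21 genes), 90 to 120 minus 45 to 75 min (13 genes) and 150 to 180 minus 90 to 120 min (13 genes). Red points passed the test, 2, 0 and 4 genes with MOH1 and RRT1 shown separately; in the right panel CBS1 alone lies below 0.

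With missing values at the floor, all 38 genes entered the last comparison and 16 rose, or 15 of 37 with RRT1 and MOH1 as a single signal, against 7.16% of 5687 genes. The floors themselves were higher by 0.60 (log2) in the later window, which lifts genes not listed there. Of the 16, 11 had a value in all 3 libraries of that window, while MAL11, XBP1, NDI1, YPT53 and ATO2 were filled there in part. Filling also turns gaps into differences, and the choice of genes used the number of listed values. The count is therefore a description, and the share of all genes, most of which lie far above the floors, is not a like comparison. Since a missing value lies below the floor, some differences rest on upper limits for the earlier window. NDE2 (2.51 ± 0.35), GSM1 (2.19 ± 0.41) and TKL2 (2.16 ± 0.35) had 1 listed value each there and rest on such limits in part. SPS100 (1.74 ± 0.40), PHM7 (1.69 ± 0.34) and LEE1 (1.45 ± 0.42) had 0, so floors alone make up their mean in that window.

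The wider gene lists around these groups give the setting. Of 55 genes on the list of the resting state and stress, 5 are among the 38, and of the 44 tested between windows 24 fell from the first to the second window and 33 rose from the second to the third, with medians of -1.07 and 2.10. Over the whole course 10 of 45 rose and 1 fell (median 1.5). Of 36 glucose-repressed genes of carbon use tested, 11 rose and 1 fell in the last comparison (median 0.78), and 7 of 39 fell in the one before (median -0.51). None of 41 rose and 1 fell over the whole course (median 0.17). In the PHO regulon, the targets of Pho4, 2 of 18 rose in the last comparison (GIT1 and PHM8, median 0.22) and none of 18 passed in the one before (median -0.03). Over the whole course 5 of 18 rose (PHM6, PHM8, PHO5, PHO8 and PHO89, median 0.78). Of the meiosis and sporulation list, 69 genes in the table, 2 are among the 38, RIM4 and SPS100, and 5 of 29 tested rose in the last comparison (median 0.63) and 1 of 35 over the whole course (median 0.28). The nitrogen list holds UGA4, and 9 of its 34 genes rose in that comparison (median 0.60), and 7 rose and 1 fell over the whole course (median 0.67). Hexose transporters, metal uptake, mannoprotein and mating lists hold none of the 38, and the list of subtelomeric families holds FLO5 and PAU2.

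Some of the genes had features in common that the choice did not use, given here as counts with no test. The annotation names a paralogue for 10 of the 38 (26.3%), against 16.8% of all protein-coding genes, and the kind of duplication was not sorted. In 8 of these pairs the paralogue was listed at 0 min and in all 13 later libraries. The major transketolase gene TKL1 was at 583 CPM at 0 min and 314 CPM at 225 min, when TKL2 had reached 84.6 CPM. NDE1 was at 79.7 CPM at 0 min and 112 CPM at 225 min, beside 76.2 CPM for NDE2. EGD1, the partner of BTT1, was at 1123 CPM at 0 min, and YGP1, that of SPS100, at 19.8 CPM. The other pairs are RTC2 with YPQ1, RNP1 with SBP1, AIM33 with PGA3, YPT53 with VPS21, FLO5 with FLO1 and ATO2 with ADY2. FLO1 and ADY2 were not listed at 0 min either.

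On the chromosomes, 7 of the 38 genes (18.4%) lie within 30000 bases of an end: IRC4, MAL11, PGU1, MCH2, NDI1, PHR1 and AQY1. Of all protein-coding genes 6.48% do, of named genes with a value at 0 min 3.72%, and of named genes missing at 0 min and listed in at most 5 later libraries 27.2%. The median coding length of the 38 was 1033.5 bases, against 1200 for all genes. Apart from AUA1, SPS100 alone overlaps another annotated feature, the non-coding transcript SUT169 on the opposite strand. The row of the open reading frame YBR116C, which carries no gene name and is not described here, matched that of TKL2 within 0.03 (log2) in all 9 libraries.

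At the border of the choice, 8 genes had exactly 6 values, among them AIM33, BTT1, MPA43, NDI1, PGU1 and PHM7, with median levels of 6.94 to 17.8 CPM. Just outside lay 10 genes with 5 values, among them AFT2, FMP45, HXT10, KDX1, MDJ2 and POT1, with medians of 6.46 to 12 CPM. The 2 sets overlap in level.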

How the data were processed

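RNA of 16 yeast libraries was sequenced on an Illumina instrument, per the labels' protocols, and the reads were mapped to the R64 build by Bowtie, per the submitters' processing notes. The counting program, annotation, strand and filter are not given in the sources used here. The authors deposited log2 values. Raised back, each library sums to 1000000, so they were read as log2 CPM. Reads were recovered by taking the lowest value of a library as 10 reads, under which 93.2% to 97.7% of low values (below 4 times the floor) were whole within 0.01 reads.

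Levels were taken as deposited, with no pseudocount. Slopes and window differences were fitted with limma 3.58.1 in R 4.3.3 (mean-variance trend, two-sided, Benjamini-Hochberg over all genes tested) and checked on simulated data. The simulation gave all genes the same scatter, and its window part used only genes listed in every library of the windows. It therefore does not cover counting error near a floor. Windows needed 2 values each. The genes and lists were chosen with earlier results of these data known. Genes named were those with the highest median levels, those called, those in a list, and the earliest, latest and border cases; the rest are given briefly. Positions and sequences come from RefSeq R64; all 38 names matched. The 2 shallow libraries were left out of the tests. Alternatives covered scaling, missing values, filters, thresholds, autocorrelation, variance model and left-out libraries.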

Additional observations from a re-analysis of the deposited data

How the results depend on the processing

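Under all 15 starvation libraries 1 gene (MOH1) rose over the course in place of 2, with RRT1 at 2.58 (limma adjusted p = 0.0524). With the lag-1 autocorrelation of 0.24 removed 4 rose (TKL2 and NDE2 in addition), and with a minimum of 6 values 3 rose (PHM7 in addition). Without 1 library at a time the number ranged from 0 to 3. From 45 to 75 min to 90 to 120 min the genes that fell numbered 3 with missing values at the floor, 1 (PHR1) with no minimum change, and 0 to 1 without 1 library, in place of 0. From 90 to 120 min to 150 to 180 min 16 rose with missing values at the floor, in place of 4, and 4 to 6 without 1 library. Counting values at 16.6 CPM or more alone, 15 genes in place of 36 were seen by 45 min, and 35 without the library of 30 min. Every other count stayed within 1.5 times its value, and no called gene changed direction in any alternative run. Counts here take MOH1 and RRT1 separately. Values near a floor rest on about 10 reads, and genes that fell below it drop out of the tests. No paired analysis was possible because no time point has a replicate.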
